A study of Mus musculus with 9 samples.

Results

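The mitochondrial rRNA block is the stretch of the mouse mitochondrial chromosome that holds the genes of both mitochondrial ribosomal RNAs and of the tRNAs at its start, middle and end. It was taken by gene name as 5 genes of the 54532 in the deposited table: mt-Tf, mt-Rnr1, mt-Tv, mt-Rnr2 and mt-Tl1. The mitochondrial chromosome holds 37 genes in that table, of which 13 are protein-coding, 22 are tRNA genes and 2 are rRNA genes. RNA was sequenced from mouse male germ cells, which the titles call spermatocytes, at a time given as PD 35. The libraries came from 3 ClpX cKO, 3 ClpP cKO and 3 Control samples. In ClpX cKO and ClpP cKO, the named gene was removed in male germ cells with Stra8-Cre, a recombinase driven by the promoter of a gene that switches on shortly before meiosis. The Control genotype is given as WT. Whether Control animals carried Cre or unrecombined alleles, how the cells were isolated, and whether each library is 1 animal are not stated. The p-values below therefore speak of the spread among libraries, which may be technical.

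ClpX is the ATPase that unfolds proteins in the mitochondrial matrix, and ClpP is the protease into which it feeds them. The heavy strand of mitochondrial DNA is copied into long RNAs that begin with this block, and the tRNAs lie between the other genes as punctuation marks at which the RNA is cut apart. mt-Rnr1 is the RNA of the small mitochondrial ribosomal subunit and mt-Rnr2 that of the large one. mt-Tf, mt-Tv and mt-Tl1 are the tRNAs for phenylalanine, valine and leucine (the UUR codons). In mouse heart, loss of ClpP is known to slow the assembly of the small subunit, through the rRNA chaperone Eral1, which the protease normally removes.

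All 5 genes lie on the plus strand of chromosome M of GRCm38, in exons of their own and with no intron. mt-Tf (ENSMUSG00000064336) spans positions 1 to 68, mt-Rnr1 (ENSMUSG00000064337) 70 to 1024, and mt-Tv (ENSMUSG00000064338) 1025 to 1093. mt-Rnr2 (ENSMUSG00000064339) spans 1094 to 2675, mt-Tl1 (ENSMUSG00000064340) 2676 to 2750, and the first protein-coding gene downstream, mt-Nd1 (ENSMUSG00000064341), 2751 to 3707. From mt-Rnr1 to mt-Nd1 each gene begins on the base after the last one ends. The 3 tRNA genes are shown because they are the shortest members, between 68 and 75 bases. Whether their reads extend into a neighbour was not examined. Sequences are GENCODE M21 transcripts on GRCm38, written 5′ to 3′ as DNA, with the anticodon of mt-Tf in capitals.
mt-Tf, chrM:1-68: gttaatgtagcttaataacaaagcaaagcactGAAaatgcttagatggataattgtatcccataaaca
The next 2 windows show the joins of mt-Tv and mt-Tl1 to their neighbours. The tRNA gene is in capitals, with the last 30 bases of the rRNA before it and the first 30 bases of the gene after it in lower case.
mt-Rnr1, mt-Tv, mt-Rnr2, chrM:995-1123: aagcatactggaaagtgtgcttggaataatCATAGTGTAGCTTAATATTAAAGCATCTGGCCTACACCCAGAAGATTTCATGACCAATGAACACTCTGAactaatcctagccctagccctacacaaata
mt-Rnr2, mt-Tl1, mt-Nd1, chrM:2646-2780: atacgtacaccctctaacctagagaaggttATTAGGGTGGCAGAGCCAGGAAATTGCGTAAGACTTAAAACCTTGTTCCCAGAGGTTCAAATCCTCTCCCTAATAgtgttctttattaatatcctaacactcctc

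The deposited values are FPKM, read counts scaled by gene length and library size, and FPKM times gene length gave whole reads, 14334436 to 17021685 per library. The libraries were made with a kit sold for mRNA, per the labels, so the values are what that kit captured of each RNA and not cellular amounts of rRNA or tRNA. The rule by which a read across a gene border was counted, and whether strand was used, are not given in the sources used here. Clpx averaged 13.4 ± 2.14 FPKM in ClpX cKO, 37.5 ± 2.42 in ClpP cKO and 56.6 ± 2.41 in Control (SD, n = 3 each). Clpp averaged 13.1 ± 0.852 FPKM in ClpX cKO, 5.002 ± 1.24 in ClpP cKO and 9.06 ± 0.522 in Control. Each targeted gene was therefore lowest in the libraries labelled with its own deletion. All 8 spermatocyte markers were measured in every group, with a summed level of 549.5 to 613.1 FPKM in ClpX cKO, 583.2 to 650.8 in ClpP cKO and 525 to 597.4 in Control. Of these, 3 were called higher and 1 lower in each knockout, among them Meiob (log2 change 0.96 in ClpX cKO and 0.65 in ClpP cKO) and Ccna1 (-0.91 in ClpX cKO and -0.81 in ClpP cKO). Leaving out Control 3 or ClpX cKO 1 raised the number of genes called between the knockouts, as given below, and results that rest on these libraries are given with and without them.

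mt-Rnr2, mt-Tl1 and mt-Rnr1 were all higher in both knockouts than in Control, by very unequal amounts. mt-Tl1 was 18.4-fold higher in ClpX cKO and 9.04-fold higher in ClpP cKO, and mt-Rnr2 was 9.28-fold higher in ClpX cKO and 4.78-fold higher in ClpP cKO. mt-Rnr1 was 2.28-fold higher in ClpX cKO and 1.70-fold higher in ClpP cKO. These folds are of FPKM + 1 against Control. mt-Tv had a handful of reads in knockout libraries and none in Control, and mt-Tf was listed at 0 throughout.

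The large-subunit rRNA gave the highest values of the block. mt-Rnr2 measured 551.3, 685.0 and 699.9 FPKM in ClpX cKO, 356.8, 315.4 and 318.4 in ClpP cKO, and 63.3, 67.1 and 74.7 in Control. The 3 groups did not overlap, and Control lay far below both knockouts. How many of all tested genes separate the groups in this way was not counted. The summed spermatid and Sertoli markers given below separate them too. The values rest on 14695 to 18968 reads in ClpX cKO, 7763 to 9743 in ClpP cKO and 1435 to 1622 in Control. On the log2(FPKM + 1) scale, mt-Rnr2 was higher by 3.21 ± 0.11 in ClpX cKO (SE; limma, Benjamini-Hochberg adjusted p = 7.6e-06) and by 2.26 ± 0.11 in ClpP cKO (limma adjusted p = 0.00015). In libraries of mixed cells such as these, a change in the mix of cells and a change in RNA per cell cannot be told apart.

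The leucine tRNA that follows mt-Rnr2 had the largest rise of the block on the log2(FPKM + 1) scale. mt-Tl1 measured 295.2, 310.8 and 341.5 FPKM in ClpX cKO, 158.4, 159.4 and 146.1 in ClpP cKO, and 14.0, 18.3 and 16.6 in Control. The groups were again fully separate, with the spread within each small beside the steps between them. As for mt-Rnr2, the share of all tested genes that separate so was not counted. Because the gene is only 75 bases long, these levels stand for 373 to 437 reads in ClpX cKO, 182 to 205 in ClpP cKO and 15 to 21 in Control. The log2 change was 4.20 ± 0.10 in ClpX cKO (SE; limma adjusted p = 6.9e-07) and 3.18 ± 0.10 in ClpP cKO (limma adjusted p = 7.4e-06). Among the 17266 genes tested, mt-Tl1 ranked 1st by size of increase in ClpX cKO and 2nd in ClpP cKO, after the tyrosine tRNA mt-Ty, and 1st by p in both. The ranks by size hold for log2(FPKM + 1), which holds down the change of genes with few or no Control reads. With 0.1 added in place of 1, mt-Tv changed by 3.48 in ClpP cKO and mt-Tl1 by 3.245. Over the alternatives in ClpX cKO, mt-Tv reached 5.83 and mt-Tl1 4.59. The methionine tRNA mt-Tm had 42 reads in ClpX cKO and 1 in Control.

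The small-subunit rRNA changed least. mt-Rnr1 measured 96.1, 140.8 and 141.8 FPKM in ClpX cKO, 106.7, 83.7 and 88.0 in ClpP cKO, and 49.5, 50.9 and 62.6 in Control. All knockout libraries lay above all Control libraries, but ClpX cKO 1 lay inside the ClpP cKO range. The reads numbered 1546 to 2354 in ClpX cKO, 1243 to 1759 in ClpP cKO and 677 to 815 in Control. The log2 change was 1.19 ± 0.17 in ClpX cKO (SE; limma adjusted p = 0.00063) and 0.76 ± 0.17 in ClpP cKO (limma adjusted p = 0.012).

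The 2 remaining tRNAs were close to or below what these libraries can measure. mt-Tv, between the rRNAs, had 4, 6 and 12 reads in ClpX cKO, 3, 0 and 6 in ClpP cKO, and none in any Control library. Its level was 3.44, 4.97 and 10.2 FPKM in ClpX cKO and 2.52, 0 and 5.24 in ClpP cKO, while a count of 0 allows up to 2.48 to 3.19 FPKM depending on the library. A floor of 3 reads was set over the whole Control group. The share of gene reads of mt-Tv was 7.22 times that floor in ClpX cKO (22 reads in all) and 2.99 times in ClpP cKO (9 reads). These folds leave out the counting error of the knockout reads, so they are not lower bounds. The limma test called mt-Tv in ClpX cKO (adjusted p = 0.0040) and not in ClpP cKO (adjusted p = 0.072), and the gene passed the filter on low values only through the knockout libraries. mt-Tf, which starts the transcript, was listed at 0 in all 9 libraries, which allows up to 2.52 to 3.24 FPKM. Of the 22 mitochondrial tRNA genes, 3 had no read in any library, 8 had none in Control, and 10 had at least 100 reads over the 9 libraries. Floors cover counting error only.

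**Figure D1:**
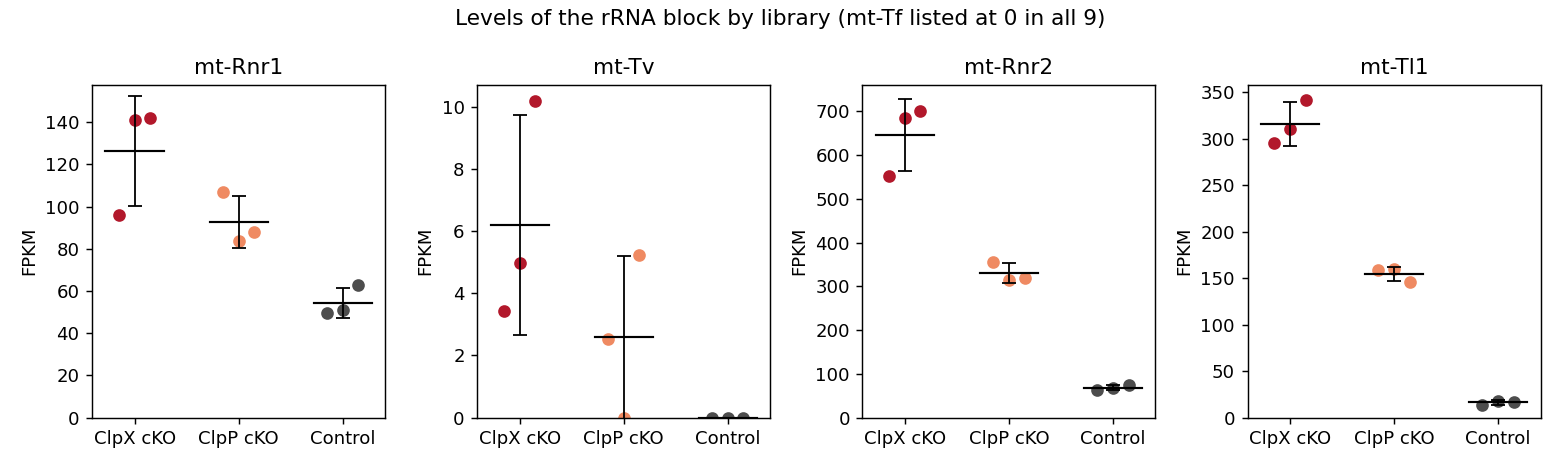
FPKM of 4 genes of the block in each library (points), with the mean (line) and SD (bars) of 3 libraries per group; each panel has its own linear axis from 0. In the mt-Rnr2 and mt-Tl1 panels the 3 groups are separate, while in the mt-Rnr1 panel the ClpX cKO library at 96.1 FPKM lies within the ClpP cKO range.

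Of the 5 genes, 4 passed the filter on low values, mt-Tv among them only through the knockouts. mt-Rnr1, mt-Rnr2 and mt-Tl1 were called higher in ClpX cKO, where 65.6% of all tested genes were called, 32.1% higher and 33.5% lower (limma, adjusted p under 0.05). They were also called higher in ClpP cKO, where 44.7% of tested genes were called, 20.7% higher and 24% lower. With shares this large, a call alone sets a gene little apart, and the sizes carry the result: the median change of all tested genes was -0.00077 in ClpX cKO and 0.01 in ClpP cKO. The comparisons share their Control libraries.

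Markers of other cells differed between the same groups. The 8 markers of elongating spermatids, among them the protamine Prm1 and the transition protein Tnp1, all fell in both knockouts, by a median log2 change of -2.61 in ClpX cKO and -1.34 in ClpP cKO. Their summed level ranged from 1561 to 2404 FPKM in ClpX cKO, 4421 to 5294 in ClpP cKO and 7670 to 17070 in Control. The 8 markers of Sertoli cells all rose, by a median of 1.01 in ClpX cKO and 0.55 in ClpP cKO, with sums of 623.6 to 839.3 FPKM in ClpX cKO, 494.3 to 532.8 in ClpP cKO and 340.5 to 354.6 in Control. Immune markers were called higher for 6 of 6 tested in ClpX cKO and 3 of 6 in ClpP cKO, with sums of 68.0 to 85.2 FPKM in ClpX cKO, 46.5 to 67.8 in ClpP cKO and 35.5 to 41.7 in Control. Peritubular and stromal markers were called higher for 5 of 6 in ClpX cKO and 2 of 6 in ClpP cKO, and Leydig markers for 1 of 6 in ClpX cKO and 0 of 6 in ClpP cKO. No marker of these lists was at 0 in a whole group. Spermatid markers thus fell where the rRNA block rose, Sertoli markers rose with it, and Leydig markers were mostly not called. Of 4 erythroid markers, 0 were called in ClpP cKO, and 1 was called lower and 0 higher in ClpX cKO. The part of the mix of cells in the result was not tested.

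Between the knockouts, mt-Tl1 and mt-Rnr2 were higher in ClpX cKO than in ClpP cKO, and mt-Rnr1 was not shown to differ. The log2 difference was 1.02 ± 0.10 for mt-Tl1 (SE; limma adjusted p = 0.015), 0.96 ± 0.11 for mt-Rnr2 (limma adjusted p = 0.031) and 0.43 ± 0.17 for mt-Rnr1 (limma adjusted p = 0.15). In this comparison 18 genes were called, or 0.104% of those tested, with 0.0463% higher and 0.0579% lower, and 4801 had an unadjusted p under 0.05. Of the 18, 4 are mitochondrially encoded: mt-Tl1, mt-Nd2, mt-Rnr2 and mt-Nd1. The number called is set by single libraries, since it was 0 without ClpP cKO 1 or ClpP cKO 3, 445 without Control 3, and 4758 without ClpX cKO 1. Leaving out 1 library ended the call of mt-Rnr2 in 7 of 9 cases and that of mt-Tl1 in 5, with adjusted p up to 0.19 and 0.13 by limma, while both differences stayed between 0.90 and 1.07 (mt-Rnr2) and 0.97 and 1.07 (mt-Tl1). Without ClpX cKO 1, mt-Rnr1 was called higher in ClpX cKO, by 0.61 (limma adjusted p = 0.016).

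The remaining genes of the chromosome set the scale for these changes. All 13 protein-coding genes were called higher in ClpX cKO (median log2 change 1.39), and 8 were in ClpP cKO (median 0.55). That count in ClpP cKO was 5 without Control 1. Among the 13, mt-Atp8 had only 2 to 3 reads per library in Control and 6 to 8 in ClpX cKO. It passed the filter on low values only through ClpX cKO, so its call there carries little weight. mt-Nd1, a complex I subunit encoded just downstream of mt-Tl1, measured 3122, 3363 and 3557 FPKM in ClpX cKO, 1952, 1841 and 1891 in ClpP cKO, and 1113, 1162 and 1132 in Control. Its log2 change was 1.56 ± 0.11 in ClpX cKO and 0.74 ± 0.11 in ClpP cKO. The 15 tested tRNA genes outside the block had log2 changes of 1.25 to 4.09 in ClpX cKO (median 2.42, 14 called higher) and 0.74 to 3.37 in ClpP cKO (median 1.505, 12 called higher). Their depth was uneven, with 0 to 272 reads per gene over the Control group, and some passed the filter only through the knockouts. mt-Ty changed by 4.09 in ClpX cKO and 3.37 in ClpP cKO, on 318 reads in ClpX cKO, 181 in ClpP cKO and 16 in Control. The cysteine tRNA mt-Tc, with 621 reads in ClpX cKO, 422 in ClpP cKO and 92 in Control, changed by 2.47 in ClpX cKO and 2.05 in ClpP cKO. Rises of several-fold were thus not particular to mt-Tl1 and mt-Rnr2. Of the 32 mitochondrially encoded genes tested, mt-Tl1 ranked 1st by change of log2(FPKM + 1) in ClpX cKO and 2nd in ClpP cKO, and mt-Rnr2 4th in both. mt-Rnr1 ranked 28th in ClpX cKO and 20th in ClpP cKO. In ClpX cKO the change of mt-Rnr2 was thus above that of mt-Nd1 and the change of mt-Rnr1 below it, although the ratio of mt-Rnr1 to mt-Nd1 did not pass its own test below.

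**Figure D2:**
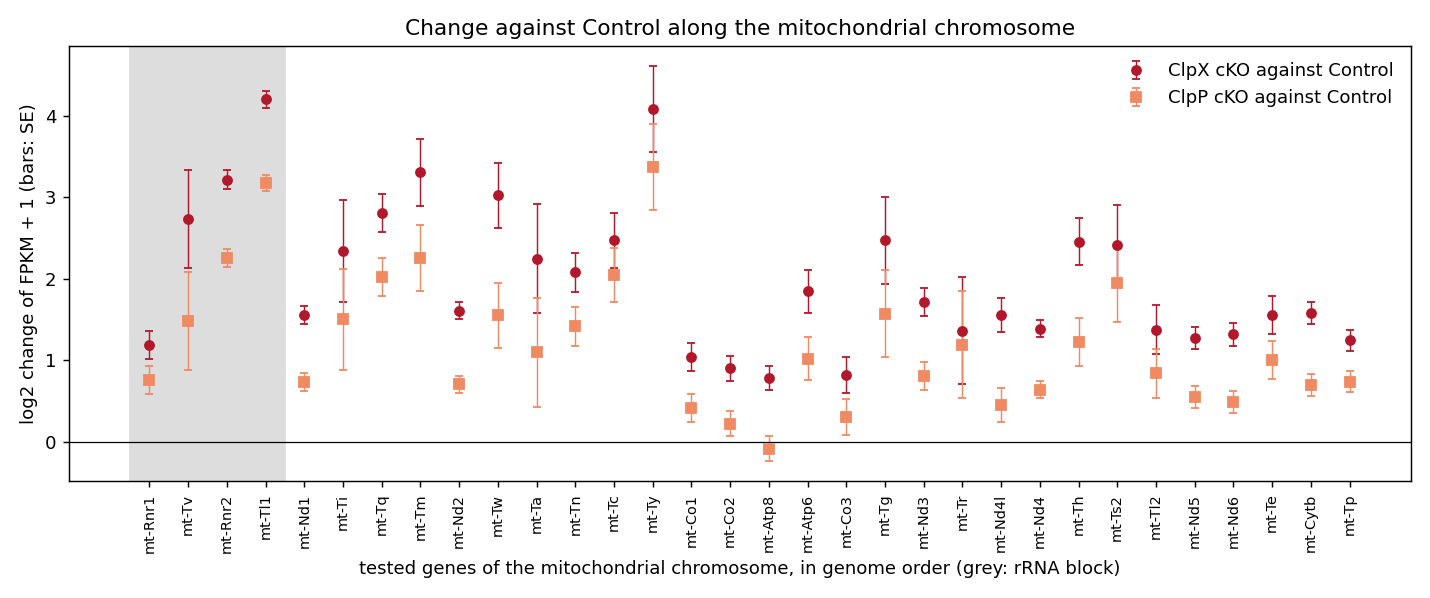
Log2 change of FPKM + 1 against Control (points) with its SE (bars) for the 32 tested genes of the mitochondrial chromosome in genome order, ClpX cKO as circles and ClpP cKO as squares, with the rRNA block shaded. In ClpX cKO mt-Tl1 lies at 4.20, mt-Rnr2 at 3.21 and mt-Rnr1 at 1.19, and in ClpP cKO they lie at 3.18, 2.26 and 0.76, with mt-Rnr1 within the range of the protein-coding genes.

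Ratios between mitochondrial genes within a library do not depend on how libraries were scaled. The rRNA share and the tRNA sum given last are set over all gene reads of a library, so they depend on that total. The tRNA sum was tested after adding 1. The 8 ratios below were each tested over the 3 groups with an exact permutation test of between-group variation on the log2 scale, adjusted over the 8, with a smallest possible p of 0.0036. An exact test of 3 libraries against 3 cannot go below 0.1, so single pairs of groups are given as values. The 4 ratios to mt-Nd1 or between mt-Tl1 and mt-Rnr2 were added after the values had been seen.

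The balance between the rRNAs took values that separated the 3 groups. The FPKM of mt-Rnr2 over that of mt-Rnr1 was 5.74, 4.86 and 4.94 in ClpX cKO, 3.34, 3.77 and 3.62 in ClpP cKO, and 1.28, 1.32 and 1.19 in Control. No group overlapped another (exact permutation p = 0.0036, adjusted p = 0.0071). That test covers the 3 groups together and not the single pairs. The ratio was 4.09-fold higher in ClpX cKO and 2.83-fold higher in ClpP cKO than in Control, and per base of gene the rRNAs were nearly level in Control.

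Set against mt-Nd1, the rRNAs behaved differently. The ratio of mt-Rnr2 to mt-Nd1 averaged 0.192 ± 0.0141 in ClpX cKO, 0.174 ± 0.0076 in ClpP cKO and 0.0602 ± 0.00502 in Control (SD, n = 3 each; exact permutation p = 0.0071, adjusted p = 0.0095), and the knockouts overlapped. The ratio of mt-Rnr1 to mt-Nd1 averaged 0.0375 ± 0.00591 in ClpX cKO, 0.0489 ± 0.00504 in ClpP cKO and 0.0478 ± 0.00647 in Control, which did not pass (exact permutation p = 0.05, adjusted p = 0.05). The ClpP cKO and Control libraries overlapped in that ratio, and all ClpX cKO libraries lay below both. Without Control 3, the exact permutation p of the ratio of mt-Rnr1 to mt-Nd1 was 0.046, and without ClpX cKO 2 it was 0.036. In the other 9 of 11 alternatives it did not pass, with an exact permutation p of up to 0.24. Without Control 3 and ClpX cKO 1 together, the log2 difference of this ratio from Control shrank to -0.11 in ClpX cKO. Relative to all 13 mitochondrial mRNAs, mt-Rnr1 alone had a log2 difference from Control of -0.10 in ClpX cKO and 0.21 in ClpP cKO (exact permutation p = 0.11).

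Relative to each of its neighbours, mt-Tl1 was higher in the knockouts than in Control, although its level per base stayed below theirs in every library. The ratio of mt-Tl1 to mt-Nd1 was 0.0943 ± 0.00181 in ClpX cKO, 0.0817 ± 0.00467 in ClpP cKO and 0.0143 ± 0.00164 in Control, with no overlap between groups (SD, n = 3 each; exact permutation p = 0.0036, adjusted p = 0.0071). The ratio of mt-Tl1 to mt-Rnr2 was 0.535, 0.454 and 0.488 in ClpX cKO, 0.444, 0.505 and 0.459 in ClpP cKO, and 0.220, 0.273 and 0.223 in Control. Knockout libraries lay above all Control libraries and overlapped with each other (exact permutation p = 0.021, adjusted p = 0.024). Without Control 3 and ClpX cKO 1 the log2 difference of the ratio of mt-Tl1 to mt-Rnr2 was 0.94 in ClpX cKO and 0.93 in ClpP cKO, and the test no longer passed (exact permutation p = 0.095). In order of level per base, mt-Tl1 therefore came above mt-Rnr1 in every ClpX cKO and ClpP cKO library and below it in every Control library.

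**Figure D3:**
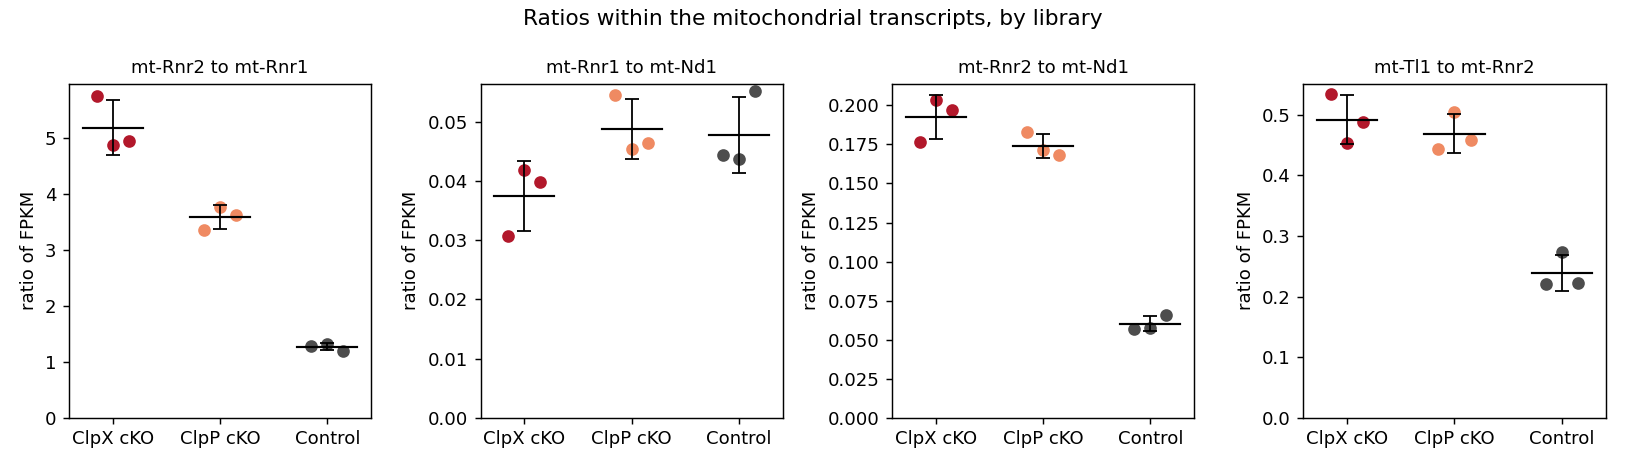
Ratio of FPKM between pairs of mitochondrial genes in each library (points), with the mean (line) and SD (bars) of 3 libraries per group, on linear axes from 0. mt-Rnr2 to mt-Rnr1 separates the 3 groups, with means of 5.18 in ClpX cKO, 3.58 in ClpP cKO and 1.26 in Control, while mt-Rnr1 to mt-Nd1 in ClpP cKO and Control overlaps.

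Measured as shares of reads, both rRNAs together made up 0.123 ± 0.0184% of gene reads in ClpX cKO, 0.0638 ± 0.00481% in ClpP cKO and 0.0147 ± 0.0019% in Control (SD, n = 3 each; exact permutation p = 0.0036, adjusted p = 0.0071). The whole mitochondrial chromosome took 2.69 ± 0.400% in ClpX cKO, 1.54 ± 0.0763% in ClpP cKO and 0.896 ± 0.0616% in Control. The ratio of rRNA reads to reads of the 13 mRNAs was 0.0480 ± 0.000759 in ClpX cKO, 0.0434 ± 0.00444 in ClpP cKO and 0.0167 ± 0.00121 in Control (exact permutation p = 0.0071, adjusted p = 0.0095), and the knockouts overlapped. The 3 tRNAs together had 25.9 ± 2.47 CPM of gene reads in ClpX cKO, 12.3 ± 0.399 in ClpP cKO and 1.12 ± 0.150 in Control (exact permutation p = 0.0036, adjusted p = 0.0071). Nearly all of these tRNA reads belong to mt-Tl1.

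The rRNAs have like base composition, with 35.8% G and C in mt-Rnr1 and 35.4% in mt-Rnr2. They differ in runs of A, of which the longest is 5 bases in mt-Rnr1, 7 in mt-Rnr2 and 6 in mt-Nd1. Copies of mitochondrial sequence in nuclear transcripts could share reads with the block, so each member was compared with all GENCODE M21 transcripts by blastn. No other transcript matched mt-Rnr1 or mt-Tv. mt-Tf matched the microRNA gene Mir6481, which had at most 1.58 FPKM, at 82.8% identity over 64 bases. mt-Rnr2 matched Gm20594 (88.5% over 435 bases), a gene listed at 0 in all libraries, and the centrosomal gene Cep295 (77.9% over 662 bases). mt-Tl1 also matched Cep295, at 93.5% over 62 bases. Cep295 measured 6.32, 6.15 and 6.16 FPKM in ClpX cKO, 8.08, 8.06 and 7.90 in ClpP cKO, and 8.12, 8.66 and 7.31 in Control. It was called lower in ClpX cKO (log2 change -0.32, limma adjusted p = 0.0040) and was not called in ClpP cKO (-0.00059). These levels do not show how many reads were shared with the block, which was not tested. Nuclear sequence outside annotated transcripts was not searched.

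The nuclear genes that make, cut, modify and assemble the products of the block did not move as 1 group. Of 12 genes for transcription from mitochondrial DNA, 4 rose, 2 fell and 6 were not called in ClpX cKO, and the counts were the same in ClpP cKO. Counts in these lists are to be read beside the 65.6% of all tested genes called in ClpX cKO and the 44.7% in ClpP cKO. The 6 of 12 called here lies between those shares. By direction, 32.1% of all tested genes were called higher and 33.5% lower in ClpX cKO. In ClpP cKO, 20.7% were called higher and 24% lower. Tfam, which packs mitochondrial DNA and opens its promoters, averaged 6.59 ± 0.535 FPKM in ClpX cKO, 12.4 ± 1.99 in ClpP cKO and 24.7 ± 6.84 in Control. It fell by 1.72 in ClpX cKO (limma adjusted p = 0.00045) and by 0.91 in ClpP cKO (limma adjusted p = 0.011) on the log2 scale. Within Control, Tfam measured 28.3, 28.9 and 16.8 FPKM, and the spermatid marker Prm1 4002, 3476 and 1435. The part of the mix of cells in the fall of Tfam was not tested. Polrmt, the mitochondrial RNA polymerase, rose by 0.43 in ClpX cKO (limma adjusted p = 0.0057) and 0.36 in ClpP cKO (limma adjusted p = 0.022). The elongation factor Tefm rose by 0.44 in ClpX cKO and 0.37 in ClpP cKO, and Twnk, the helicase of mitochondrial DNA, by 0.56 in ClpX cKO and 0.43 in ClpP cKO. Mterf1a and Mterf1b, whose human counterpart binds inside the leucine tRNA gene, were not called in either knockout. Their log2 changes were -0.15 and 0.08 in ClpX cKO and 0.04 and 0.02 in ClpP cKO.

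Of 12 genes that excise the flanking tRNAs or finish them, 6 rose and 2 fell in ClpX cKO, and 5 rose and 1 fell in ClpP cKO. The counts that rose lie above the 32.1% and 20.7% of all tested genes called higher. Over both directions, 4 of the 12 were not called in ClpX cKO and 6 in ClpP cKO, which is near the shares over all tested genes. The median log2 change of the list was 0.26 in ClpX cKO and 0.24 in ClpP cKO. Trmt10c, a subunit of the mitochondrial RNase P that cuts before a tRNA, rose by 0.31 in ClpX cKO and 0.25 in ClpP cKO. Elac2, which cuts after a tRNA, was not called (log2 changes of 0.20 in ClpX cKO and 0.22 in ClpP cKO). The tRNA-modifying enzymes Trit1 and Pus1 rose by 0.82 and 0.66 in ClpX cKO, and by 0.62 and 0.48 in ClpP cKO. Nsun2, an RNA cytosine methyltransferase, fell by 0.42 in ClpX cKO and 0.36 in ClpP cKO, and after quantile normalization no gene of the list was called lower in either knockout.

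Of 11 tested genes for the small-subunit rRNA, 4 rose and 4 fell in ClpX cKO, and 4 rose and 2 fell in ClpP cKO. Eral1, the chaperone of mt-Rnr1 and a known ClpXP substrate, measured 11.04, 13.65 and 13.82 FPKM in ClpX cKO, 11.93, 13.83 and 13.01 in ClpP cKO, and 9.268, 9.265 and 10.29 in Control. It rose by 0.38 in ClpX cKO (limma adjusted p = 0.0087) and 0.39 in ClpP cKO (limma adjusted p = 0.016). These are RNA levels, and the protein was not measured here. Nsun4, which methylates mt-Rnr1, averaged 15.1 ± 4.82 FPKM in ClpX cKO, 24.8 ± 4.37 in ClpP cKO and 51.0 ± 8.48 in Control. On the log2 scale it fell by 1.72 in ClpX cKO (limma adjusted p = 0.00047) and by 1.01 in ClpP cKO (limma adjusted p = 0.011). Within Control, Nsun4 measured 55.8, 56.1 and 41.3 FPKM, lowest in Control 3 like Tfam and Prm1. The part of the mix of cells in its fall was not tested. Tfb1m, the adenine dimethyltransferase of mt-Rnr1, fell by 0.52 in ClpX cKO and 0.46 in ClpP cKO, while the assembly factor Rbfa rose by 0.71 in ClpX cKO and 0.46 in ClpP cKO. The rRNA methyltransferase gene Trmt2b rose by 0.56 in ClpX cKO and 0.32 in ClpP cKO, and Mettl17, which acts in small-subunit assembly, by 0.36 in ClpX cKO and 0.44 in ClpP cKO.

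Of 17 genes for the large-subunit rRNA, 9 rose and 1 fell in ClpX cKO, and 4 rose and 1 fell in ClpP cKO. Over both directions, this in neither knockout exceeds the share of all tested genes called. The 9 of 17 that rose in ClpX cKO lie above the 32.1% of all tested genes called higher there. The median log2 change of the list was 0.27 in ClpX cKO and 0.26 in ClpP cKO. Mrm1, a methyltransferase of mt-Rnr2, rose by 0.82 in ClpX cKO and 0.53 in ClpP cKO. The GTPase gene Mtg1 rose by 0.49 in ClpX cKO and 0.30 in ClpP cKO. Noa1, another mitochondrial GTPase, rose by 0.72 in ClpX cKO and was not called in ClpP cKO, with a log2 change of 0.25. The helicase gene Dhx30 fell by 0.37 in ClpX cKO and 0.24 in ClpP cKO. Of the 3 synthetases that charge the flanking tRNAs, Fars2 (phenylalanine) fell by 0.37 in ClpX cKO and 0.23 in ClpP cKO, and Vars2 (valine) rose by 0.77 in ClpX cKO and 0.54 in ClpP cKO. Lars2 (leucine), the partner of mt-Tl1, was not called, with log2 changes of 0.36 in ClpX cKO and -0.09 in ClpP cKO. The counts in ClpP cKO moved with single libraries. Without ClpP cKO 2, the number that rose was 2 for transcription, 2 for excision, 2 for the small-subunit rRNA and 1 for the large-subunit rRNA. For the large-subunit list it was also 1 without Control 1, and 7 without ClpX cKO 1. When each library was scaled to its own read total, the median change of all tested genes became 0.18 in ClpX cKO and 0.16 in ClpP cKO. Under that scaling 12 large-subunit genes rose in ClpP cKO, and neither Dhx30 nor Fars2 was called lower. In the lists for transcription and for the small-subunit rRNA 1 gene each was then called lower in each knockout. None of these nuclear genes was called between ClpX cKO and ClpP cKO.

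**Figure D4:**
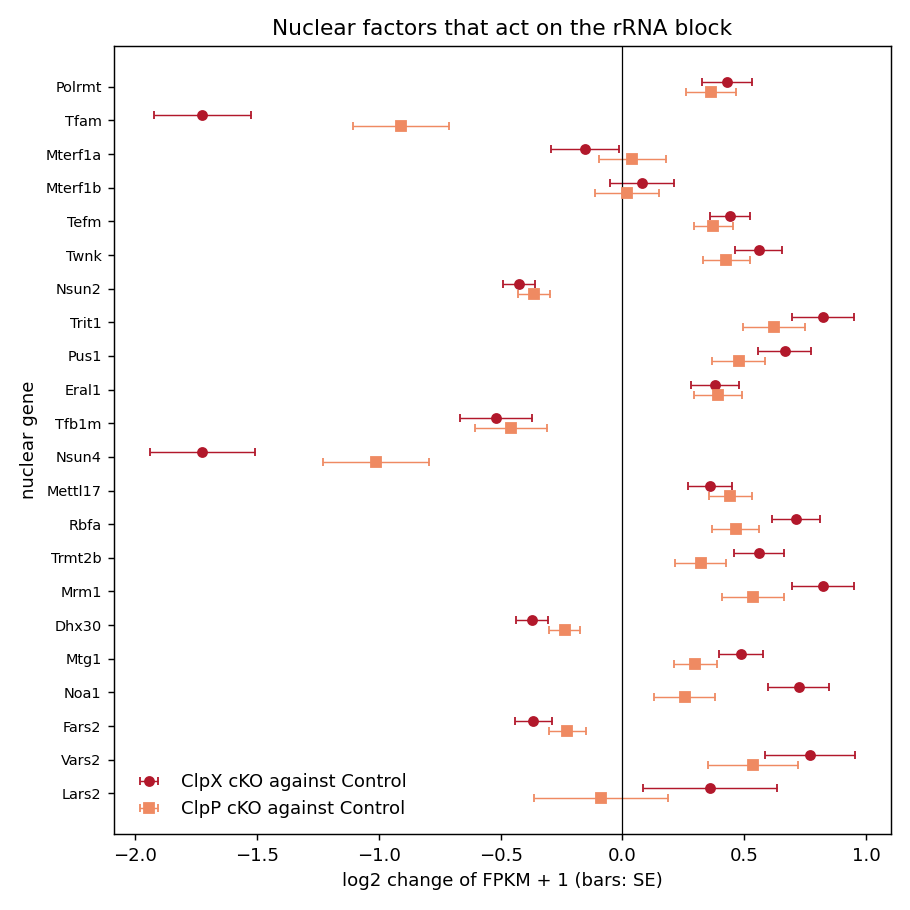
Log2 change of FPKM + 1 against Control (points) with its SE (bars) for 22 nuclear genes that act on the rRNA block, ClpX cKO as circles and ClpP cKO as squares. Tfam and Nsun4 lie farthest to the left, both at -1.72 in ClpX cKO, with Tfam at -0.91 and Nsun4 at -1.01 in ClpP cKO, while Eral1 lies at 0.38 in ClpX cKO and 0.39 in ClpP cKO.

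The genes whose log2(FPKM + 1) followed the mean of mt-Rnr1 and mt-Rnr2 most closely over the 9 libraries were all nuclear. They were Rps6kb2 (Pearson r = 0.9985), Cd2ap (0.9951), Usp31 (0.9948), Fam168a (0.9945) and Appl1 (0.9922), out of 17262 genes compared. The 9 libraries fall into 3 groups, and 1178 nuclear genes had r over 0.95.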

How the data were processed

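The table holds FPKM computed and deposited by the authors, on GRCm38 (mm10) per the submitters' processing notes, and its header also names a column of gene lengths in bases (deposited, of another unit). Aligner, counter and strand setting are not given in the sources used here. In each library, 100% of values times gene length came out as whole numbers of a fixed step (tolerance 0.01), which were taken as reads. The implied per-million denominator over the library's own total was 1.07 ± 0.0174 in ClpX cKO, 1.05 ± 0.0037 in ClpP cKO and 0.919 ± 0.028 in Control (SD, n = 3 each), a factor of unstated origin. The 17266 genes whose FPKM averaged at least 1 were fitted as log2(FPKM + 1) with limma 3.58.1 (trend) in R 4.3.3. The 3 groups shared 1 model of 9 libraries, leaving 6 residual degrees of freedom. Calls are two-sided at a Benjamini-Hochberg adjusted p under 0.05. Ratios were tested over 1680 assignments of libraries to groups. Python 3.11.15, scipy 1.17.1 and blastn 2.17.0+ were used. The fit was tested on simulated data. The members and gene lists were chosen with earlier results of these data known. Named nuclear genes were a fixed set and up to 3 called genes with the smallest adjusted p per list and knockout; Trmt10c, Elac2, Cep295, Meiob, Ccna1, mt-Nd2, mt-Tc and mt-Ty were added with their values known. Alternatives changed pseudocount, filter, scaling, model and libraries.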

Additional observations from a re-analysis of the deposited data

How the results depend on the processing

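The higher levels of mt-Rnr1, mt-Rnr2 and mt-Tl1 against Control kept direction and call in all 21 alternatives each. In ClpX cKO the log2 changes lay between 1.09 and 1.66 (mt-Rnr1), 3.15 and 3.68 (mt-Rnr2) and 4.10 and 4.59 (mt-Tl1). In ClpP cKO they lay between 0.66 and 1.09 (mt-Rnr1), 2.20 and 2.63 (mt-Rnr2) and 3.07 and 3.40 (mt-Tl1). The ratio of mt-Rnr2 to mt-Rnr1 passed in all 12 alternatives.

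Other results moved, and the cause was not tested unless stated. With mt-Rnr1 alone over the mRNAs, a choice made after seeing the data, the rRNA to mRNA ratio turned to -0.10 in ClpX cKO and was 0.21 in ClpP cKO (exact permutation p = 0.11). With a mean FPKM of at least 5, 6871 genes were called in ClpX cKO, since fewer were tested. Between ClpX cKO and ClpP cKO, 29 genes were called after quantile normalization, 828 with voom on reads, 89 with the 6 libraries alone and 5149 without Control 3 and ClpX cKO 1 together. Without those 2 libraries mt-Rnr1 was called there at 0.61 (limma adjusted p = 0.0088), and the ratio of mt-Tl1 to mt-Rnr2 was 0.94 in ClpX cKO and 0.93 in ClpP cKO. With no filter mt-Rnr2 was at 0.96 (limma adjusted p = 0.067).

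Leaving out 1 library each gave 3617 to 8729 genes called in ClpP cKO against Control and 0 to 4758 between knockouts. Between knockouts mt-Rnr1 lay between 0.33 and 0.61, mt-Rnr2 between 0.90 and 1.07 and mt-Tl1 between 0.97 and 1.07. The ratio of mt-Rnr1 to mt-Nd1 lay between -0.44 and -0.22 in ClpX cKO and -0.049 and 0.14 in ClpP cKO. Without ClpP cKO 2, mt-Tv was called in ClpP cKO (limma adjusted p = 0.037). That call rests on 3 and 6 reads against none in Control. The gene passed the filter on low values only through the knockouts, so the call carries little weight.

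The titles number the replicates alike, but same-numbered libraries did not deviate together in every pair (correlations -0.07 to 0.23). Differently numbered libraries were not compared, so whether the numbers pair the libraries is not settled. The main fit left pairing out. With the replicate number as a block, 1 gene was called between knockouts, mt-Rnr2 stood at 0.96 (limma adjusted p = 0.055) and mt-Tl1 at 1.02 (limma adjusted p = 0.050). The ratio of mt-Tl1 to mt-Rnr2 stood under the block at 1.05 in ClpX cKO and 0.98 in ClpP cKO (exact permutation p = 0.083), and that of mt-Rnr2 to mt-Nd1 at 1.68 in ClpX cKO and 1.53 in ClpP cKO (exact permutation p = 0.056). mt-Tv was called in ClpP cKO under the block (limma adjusted p = 0.0497), which carries little weight for the same reason. Depth limits mt-Tf and mt-Tv, which had at most 12 reads in a library.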
